A study of Gallus gallus with 12 samples.

Results

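Rhombomere 5 (r5), a posterior segment of the embryonic hindbrain, was compared with rhombomere 2 (r2), an anterior one, in the chick. Each difference is between 4 of the 12 arrays of the series, the 2 whose tissue label is r5 and the 2 whose label is r2. The arrays of the midbrain (m) and rhombomeres r1, r3 and r4 also entered the estimate of the spread and the filter on low signals. Their own values are given only where these regions are named. Each array carried RNA from a pool of dissected tissue, and the pools of a segment were collected on different occasions and are called set 1 and set 2. Both segments came from neural tubes labelled stage HH10, freed of adhering ectoderm and mesoderm by hand after 15 min in 1 mg/ml of Dispase, a protease that loosens tissue layers, and cut at the visible segment boundaries. The study's text gives a slightly later stage and a shorter Dispase treatment than the labels. The labels give no difference in genotype, drug or age between the groups, and the strain and the number of embryos in a pool are not given in the sources used here.

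The hindbrain forms as a row of rhombomeres, each a compartment whose cells mix little with those of its neighbours and later give rise to particular cranial nerves and neural crest streams. Hox transcription factors are switched on in nested domains with sharp anterior limits at rhombomere boundaries, so that a posterior segment carries Hox genes that an anterior segment lacks. Retinoic acid from the trunk mesoderm and fibroblast growth factors (FGFs) made within the hindbrain help to set these limits, and r5 lies beside the otic placode, the future inner ear.

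The largest difference among the called genes was that of the Hox gene HOXA3. HOXA3 and HOXB3 were close to the lowest measurable signal in both r2 pools and high in both r5 pools. HOXA2 and HOXB1, which was brighter still in both r4 pools, were also higher in r5. Also higher were DHRS3 and RDH10, which interconvert retinol and retinaldehyde, the FGF ligands FGF3 and FGF19, the cell adhesion gene CDH20, the matrix genes SPP1, COL6A3 and FN1, and the avian lens crystallin gene ASL1. In r5 the transcripts of the FGF antagonists SPRY2 and IL17RD, of the guidance receptor NRP2, of the adhesion genes CDH13 and CLDN1 and of the fibrillar collagen gene COL3A1 were lower. In bulk tissue such a difference can be one of fewer cells of a type or of less RNA per cell, which cannot be told apart here. Not all genes of this paragraph were equally firm. HOXA2, DHRS3, RDH10, FGF19 and FN1 did not pass the threshold when the arrays were left unscaled. HOXA2, FN1 and IL17RD did not pass it with the 3′ to 5′ ratio of control probe sets as a covariate, both described below. When each of the 4 arrays of r2 and r5 was left out in turn, HOXA2, RDH10, FN1 and IL17RD lost their calls in all 4 fits. HOXB1 and FGF19 lost theirs in 3 of these 4 fits, and HOXB3 and CLDN1 in 2. DHRS3 kept its call in each of them.

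Values below are MAS5 signals, 1 intensity for each probe set on a linear scale, after each array was divided by its median and multiplied by 5.90, and signals under 1.03 were raised to that floor before log2 was taken. Differences are r5 minus r2 on the log2 scale, and an adjusted p is that of limma after Benjamini-Hochberg adjustment over the 21731 probe sets kept, with n = 2 pools for each segment. Of these probe sets, 126 (0.58%) were higher in r5 and 111 (0.511%) were lower at an adjusted p under 0.05, 1.09% in either direction, which came to 90 higher and 56 lower of the 10001 genes with a symbol. The median difference over all probe sets was -0.10, and the median of the called probe sets was 2.13 for those higher and -2.06 for those lower. No called probe set had overlapping r2 and r5 pools. Irrespective of the test, both r5 pools lay above both r2 pools in 21.3% of all probe sets and below them in 30.3%. Without each of the 4 arrays in turn, 29 to 45 probe sets were called higher and 16 to 37 lower, and 24 and 14 were called in all 4 of these fits. The range of adjusted p over these fits is given as the leave-one-out range. In each of them the remaining array of a segment is assumed to vary as much as the arrays of the other regions do.

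**Figure D1:**
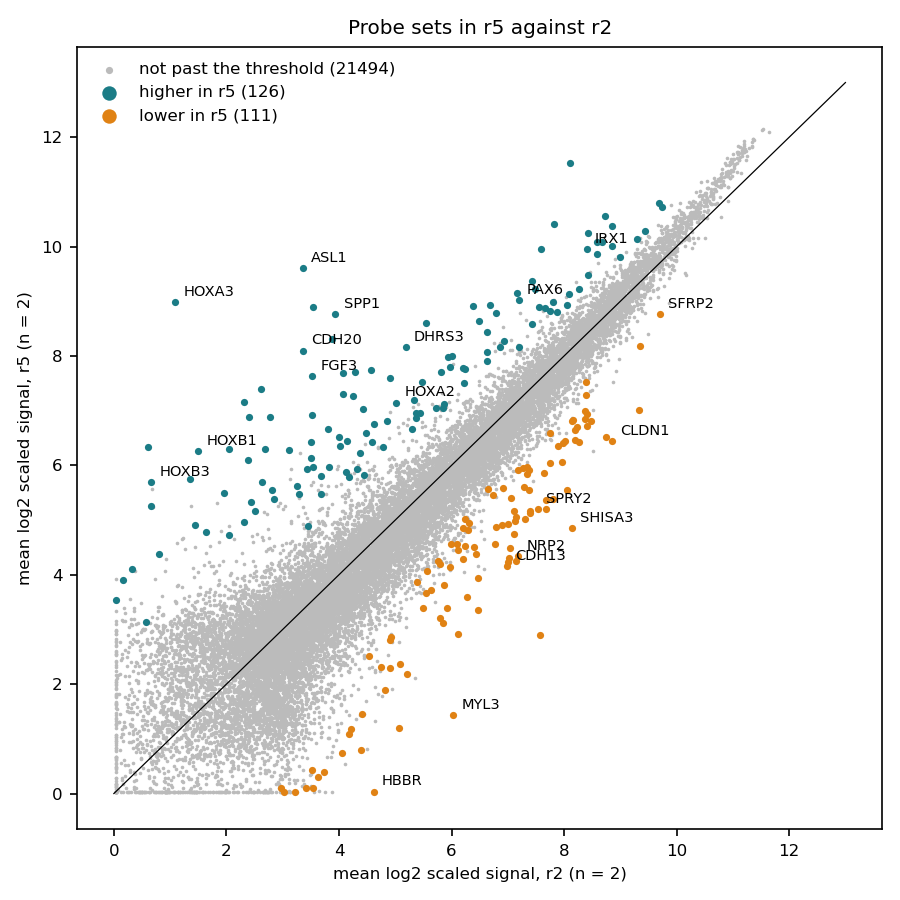
Mean log2 scaled signal of each probe set in r2 (horizontal axis) against r5 (vertical axis), n = 2 pools each, with the line of equality. The 126 probe sets higher in r5 are in teal and the 111 lower in orange, with HOXA3 the farthest above the line and MYL3 and HBBR the farthest below it.

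The arrays of the segments were not alike in median signal or in the ratio of 3′ to 5′ control signals. The study's text reports an RNA integrity check for each segment and array quality measures within the maker's range. Whether the ratio reflects the RNA itself or its amplification was not tested. The median signal as deposited was 8.50 and 8.75 in r2 and 4.19 and 4.87 in r5, and the control probe sets of beta-actin at the 3′ and 5′ end of the transcript had a ratio of 9.53 and 13.3 in r2 and 33.5 and 22.0 in r5. Averaged with the like ratios of GAPDH and EF1a on the log2 scale it was 1.50 and 1.90 in r2 and 3.36 and 2.08 in r5, so that r5 set 1 stood apart and r5 set 2 lay near r2 set 2. The r3 arrays had the highest ratios of all, at 7.12 and 6.12. With this ratio as a covariate, 47 probe sets were higher and 35 lower in r5, and 30 of the 59 genes that passed the threshold and are named by the rule kept their call. HOXA3, HOXB3, HOXB1, DHRS3, RDH10, FGF3, FGF19, ASL1, SPP1, CDH20, SPRY2, NRP2, CDH13 and COL3A1 were among those that kept it, and HOXA2, IRX1, ZNF503, FN1, WNT3A, BMP5, EPHA1 and MYL3 among those that did not. On the signals as deposited, without scaling, 16 of the 59 calls were lost, all of genes higher in r5, namely HOXA2, ZNF503, IRX1, DHRS3, RDH10, FGF19, DUSP5, WNT3A, PAX6, SEMA5B, SEMA6D, FN1, AGT, BFSP1, SLC14A2 and ITGB2 (adjusted p from 0.0748 to 0.555). Pearson's r of the log2 signals over the probe sets kept, which are not independent, was 0.958 between the r2 pools, 0.940 between the r5 pools and 0.921 to 0.929 between pools of different segments. General genes of the neural tube were measured in both segments. SOX3, an early neural transcription factor, was at 139.9 and 128 in r2 and 142 and 138 in r5, CDH2 (N-cadherin) at 376 and 420.1 and 457 and 421, and ZIC2 at 616 and 717 and 740.4 and 774. The SOX2 probe set was low in both segments, at 4.03 and 6.31 and 1.57 and 3.01.

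The labels were set beside HOXA3, HOXB3 and DHRS3, given with the comparison as markers of r5, and beside the Hox genes of other segments. HOXA3, a homeodomain transcription factor whose anterior limit lies at the front of r5, had a signal of 3.06 and 1.49 in the 2 r2 pools and 512 and 503 in the 2 r5 pools. The difference was 7.90 (SE 0.67, adjusted p = 1.78e-04), with a leave-one-out range of 0.00320 to 0.00739. It was the largest of all called genes, and r4 lay between the segments at 22.0 and 56.1. A further HOXA3 probe set, dimmer throughout, was at the floor in both r2 pools and at 7.79 and 7.94 in r5, which did not pass the threshold (adjusted p = 0.194). HOXB3, the paralogue of the same group, read 2.05 and 1.23 in r2 and 60.1 and 44.5 in r5, a difference of 5.02 (SE 0.69, adjusted p = 0.00414). Its call was lost without r2 set 2 (adjusted p = 0.0667) and without r5 set 1 (0.0701). All 3 markers thus had both r5 pools above both r2 pools, with the values of DHRS3 given below. They came with the comparison, so this is not an independent check of the labels. Both r4 pools were above both r2 pools as well, with HOXB3 at 7.74 and 10.0 and DHRS3 at 82.0 and 77.3 in r4. A signal above r2 therefore does not by itself tell r5 from r4.

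HOXA2, the only Hox gene known to be active as far forward as r2, was measured well above the floor in both segments. Its signal was 24.6 and 42.8 in r2, 108 and 109 in r3, 79.9 and 144 in r4 and 152 and 133 in r5, with a mean below the floor in m (0.519) and r1 (0.490). The difference of r5 from r2 was 2.13 (SE 0.41, adjusted p = 0.0268), and it missed the threshold in every fit that left out 1 array, with adjusted p = 0.387 without r2 set 1, 0.0914 without r2 set 2, 0.201 without r5 set 1 and 0.169 without r5 set 2. HOXB1, the gene of r4 identity, was at 2.02 and 3.93 in r2 and 57.6 and 101 in r5, a difference of 4.76 (SE 0.73, adjusted p = 0.00717), but it was brightest in r4, at 225 and 367. This call was lost without r2 set 1 (0.133), r5 set 1 (0.0581) and r5 set 2 (0.115), and a dimmer HOXB1 probe set went the other way without passing the threshold (-0.83, adjusted p = 0.81). Of the 39 Hox genes listed, 29 were annotated and 12 measured, that is, kept by the filter on low signals. Of those 12, 4 were higher in r5 and none lower, and the median difference was 0.83. HOXA3, HOXB3 and HOXB1 were under the array median in both r2 pools, so the filter kept them for their signal in other regions. Genes kept in this way had little room to be lower in r5. Without scaling the list median was 0.05, with 3 genes called higher. With the filter on r2 and r5 alone it was 3.44, with 4 of 6 called higher. With a filter at a deposited signal of 20 it was 4.89, with 4 of 4 called higher. Over all genes 0.90% were higher and 0.56% lower, the shares against which the Hox count and the later list counts stand. The 12 summed to 65.2 and 77.7 in r2, of which HOXA2 gave 24.6 and 42.8. There was thus little Hox signal in r2 that could be lower in r5. HOXB2 and HOXB4 did not pass the filter, with HOXB2 at 4.97 and 1.50 in r2 and 1.77 and 8.73 in r5.

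Genes listed as Hox cofactors or as posterior segment regulators were less uniform. FGF3 is described with its family below. IRX1, an Iroquois homeobox gene, was at 298 and 383 in r2 and 1142 and 867 in r5, a difference of 1.56 (SE 0.23, adjusted p = 0.00572), whereas r3 and r4 were lower than both, at 91.8 and 113 and 87.5 and 117. Its means in the more anterior m (529) and r1 (631) were above that of r2 (340), so its signal did not mark posterior segments alone. The IRX1 call was lost without r2 set 1 (0.133) and without r5 set 1 (0.0908). Its neighbour in the family IRX2 ran the other way, at 341 and 392 in r2 and 92.4 and 64.0 in r5, without passing the threshold (-2.25 (SE 0.56, adjusted p = 0.0935)). TSHZ3, a teashirt zinc finger gene, read 18.7 and 7.05 in r2 and 109.7 and 133 in r5 (3.40 (SE 0.45, adjusted p = 0.00317)), and its adjusted p was 0.0570 without r5 set 2. ZNF503, a zinc finger gene of the hindbrain in fish, differed by 1.31 (SE 0.24, adjusted p = 0.0235) between 118 and 114 in r2 and 289.5 and 287 in r5, and its leave-one-out range of 0.158 to 0.231 lay wholly above the threshold. MEIS1 and MEIS2, homeodomain partners of Hox proteins, differed by 0.27 (SE 0.40, adjusted p = 0.861) and 0.10 (SE 0.36, adjusted p = 0.954). The zinc finger genes TSHZ3 and ZNF503 were the 2 of 11 measured members of the Hox cofactor list that passed. Both were higher, with a median difference of 0.10 over the list. ZNF503 stands on both lists, and with FGF3 and IRX1 it made up the 3 of 16 posterior segment regulators that passed, with a median of 0.15. The segment regulator EGR2 was not analysed here.

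In the retinoid pathway the genes that passed the threshold were DHRS3 and RDH10, whose enzymes interconvert retinol and retinaldehyde, the precursor of retinoic acid. DHRS3, which reduces retinaldehyde back to retinol, was at 32.0 and 41.4 in r2 and 255 and 322 in r5, a difference of 2.98 (SE 0.29, adjusted p = 3.14e-04) with a leave-one-out range of 0.00654 to 0.0131. Its call was lost without scaling (0.0808), and a dimmer DHRS3 probe set, at 2.08 and 6.03 in r2 and 45.2 and 35.2 in r5, did not pass the threshold (adjusted p = 0.0958). Both r5 pools also lay above the r4 pools, at 82.0 and 77.3, and the difference of r5 from r4 was 1.85 (adjusted p = 0.0123). RDH10, which oxidises retinol to retinaldehyde, was at 109.7 and 88.5 in r2 and 312 and 383 in r5 (1.81 (SE 0.34, adjusted p = 0.0235)). Its brightest probe set missed the threshold whichever of the 4 arrays was left out, whereas another probe set, at 42.2 and 46.9 in r2 and 179 and 192 in r5, differed by 2.06 (adjusted p = 8.20e-04). Dimmer RDH10 probe sets were higher in r5 without passing the threshold (2.20, adjusted p = 0.0784 and 2.08, adjusted p = 0.421).

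The genes of enzymes that make and degrade retinoic acid itself did not pass the threshold. ALDH1A2, which makes it, was dim in both segments, at 4.38 and 5.70 and 8.61 and 5.67. CYP26C1, which breaks it down, was bright in both, at 674 and 731 in r2 and 1319 and 1183 in r5, a difference of 0.83 (SE 0.20, adjusted p = 0.0823), and CYP26A1 and CYP26B1 differed by -0.37 (SE 0.43, adjusted p = 0.809) and -1.09 (SE 0.70, adjusted p = 0.615). RARB, a receptor whose gene is itself induced by retinoic acid, was higher in both r5 pools (126 and 107) than in both r2 pools (38.1 and 37.2) without passing the threshold (1.62 (SE 0.44, adjusted p = 0.131)). CRABP1, a cellular retinoic acid binding protein, differed by -0.59 (SE 0.48, adjusted p = 0.704). In total 2 of 16 measured retinoid genes were higher and none lower, with a median of 0.23.

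In the FGF pathway the ligand genes FGF3 and FGF19 were higher in r5, and genes of feedback inhibitors were called in both directions. FGF3, a ligand made in the hindbrain beside the ear, was at 8.92 and 14.8 in r2 and 238 and 165 in r5, a difference of 4.11 (SE 0.47, adjusted p = 9.71e-04) with a leave-one-out range of 0.00964 to 0.0313. A further FGF3 probe set gave 15.9 and 17.6 in r2 and 244 and 173 in r5 (3.62, adjusted p = 1.00e-04). The 2 probe sets did not read r3 alike, at 169.9 and 103 and at 23.2 and 24.2, while in r4 they gave 103 and 175 and 112 and 128. FGF19, a ligand with a role in inducing the chick ear, was at 10.0 and 19.5 in r2 and 103 and 99.8 in r5 (2.86 (SE 0.40, adjusted p = 0.00463)). The call of FGF19 was lost without r2 set 1 (0.0980), r5 set 1 (0.0644) and r5 set 2 (0.0604). FGF8, the ligand of the mid-hindbrain boundary, went the other way, at 25.9 and 23.8 in r2 and 1.36 and 4.57 in r5, just short of the threshold (-3.31 (SE 0.72, adjusted p = 0.0515)).

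Among the feedback genes, SPRY2, which encodes the receptor tyrosine kinase antagonist Sprouty 2, was at 175 and 196 in r2 and 30.7 and 44.5 in r5. It fell by 2.33 (SE 0.26, adjusted p = 7.88e-04) and passed the threshold without any 1 of the 4 arrays (0.00722 to 0.0245). IL17RD, or Sef, a transmembrane inhibitor of FGF signalling, was at 67.9 and 59.1 in r2 and 27.0 and 20.8 in r5 (-1.42 (SE 0.27, adjusted p = 0.0282)), a call that no fit without 1 of the 4 arrays kept (0.0859 to 0.337). A dimmer IL17RD probe set was lower in r5 without passing the threshold (-1.53, adjusted p = 0.243). DUSP5, a phosphatase that inactivates ERK in the nucleus, was instead higher in r5, at 168 and 276 against 19.4 and 29.1 in r2 (3.18 (SE 0.44, adjusted p = 0.00414)). Its adjusted p was 0.101 without r2 set 1 and 0.0757 without r5 set 2. Of 27 measured members of the FGF list, 3 were higher and 2 lower, and the median difference was 0.00.

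**Figure D2:**
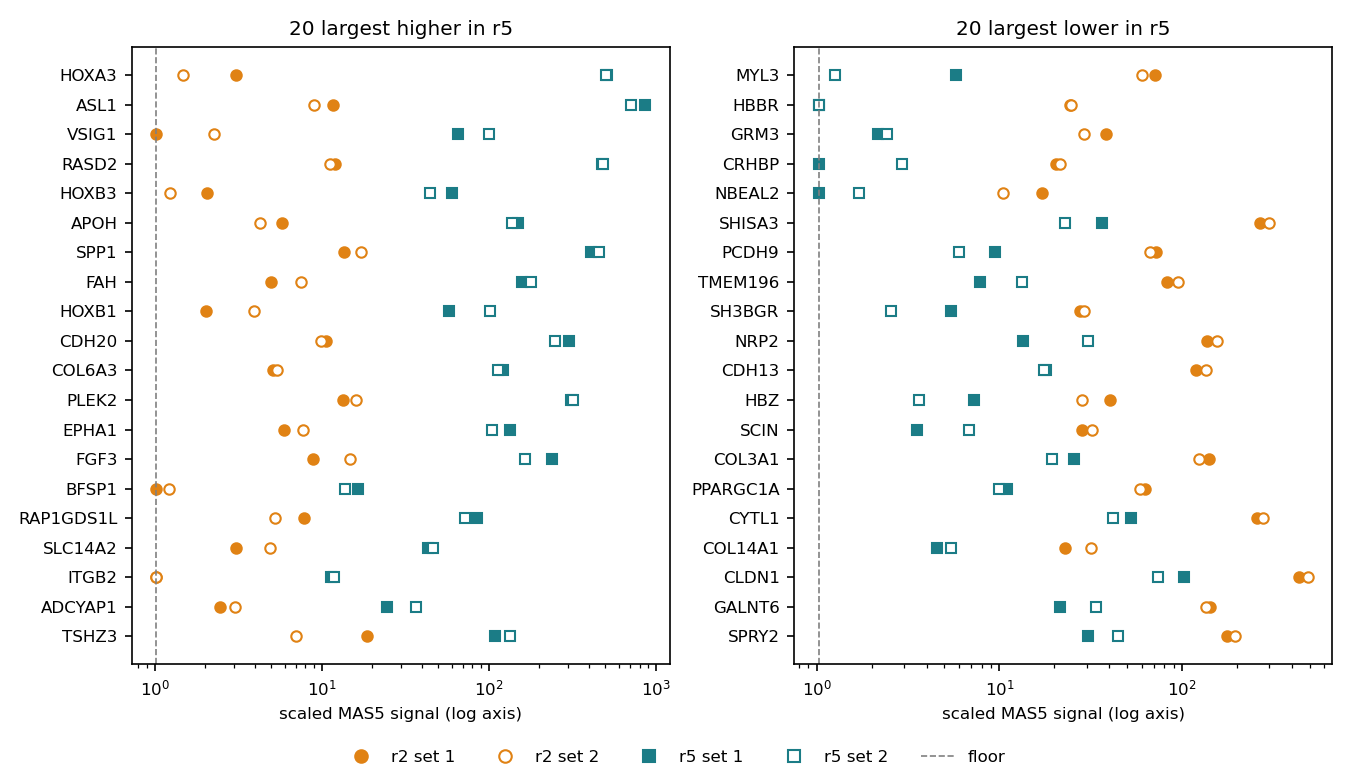
Scaled signal on a log axis of the 20 largest increases and the 20 largest decreases in r5 among genes past the threshold, 1 symbol for each of the 4 pools, with the floor of 1.03 as a dashed line. No gene has overlapping r2 (orange) and r5 (teal) pools, and HBBR and ITGB2 have both pools of 1 segment at the floor.

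After HOXA3, the largest increase was that of ASL1. ASL1 encodes delta-1 crystallin, an abundant lens protein of birds that derives from the urea cycle enzyme argininosuccinate lyase. It was at 11.6 and 9.02 in r2 and 866 and 708 in r5, a difference of 6.26 (SE 0.39, adjusted p = 1.41e-05), and its leave-one-out range was 6.75e-04 to 0.00181. In r4 it was at 71.9 and 78.6, and the other regions had means of 7.85 to 9.79. RASD2, a Ras-like small GTPase known from the striatum, was at 12.1 and 11.2 in r2 and 474 and 480.3 in r5 (5.36 (SE 0.34, adjusted p = 1.41e-05), leave-one-out 7.58e-04 to 0.00181). PLEK2, a pleckstrin relative that links the membrane to actin, was at 13.5 and 16.0 in r2 and 310.4 and 321 in r5 (4.43 (SE 0.37, adjusted p = 1.74e-04), leave-one-out 0.00500 to 0.00739). RAP1GDS1L was at 7.88 and 5.24 and 85.1 and 72.3 (3.61 (SE 0.42, adjusted p = 0.00122), leave-one-out 0.0149 to 0.0318). These 4 calls held without any 1 of the 4 arrays.

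Other genes called higher in r5 lost their call in 2 or more of the 4 fits without 1 array. VSIG1, an immunoglobulin-domain membrane protein, was at 0.771 and 2.26 in r2 and 65.6 and 100.3 in r5 (5.74 (SE 0.82, adjusted p = 0.00535)), and its adjusted p was 0.104 without r2 set 1, 0.0566 without r5 set 1 and 0.0798 without r5 set 2. APOH, a plasma apolipoprotein made by the liver, was at 5.78 and 4.30 and 149.8 and 138 (4.85 (SE 0.71, adjusted p = 0.00572)). FAH, the last enzyme of tyrosine breakdown, was at 4.97 and 7.56 and 159 and 180.2 (4.79 (SE 0.86, adjusted p = 0.0202)). Both lost their call without any 1 of the 4 arrays, with leave-one-out ranges of 0.0749 to 0.0915 and 0.138 to 0.248. SLC14A2, a urea transporter, BFSP1, which encodes the lens filament protein filensin, and EPHA1, an Eph receptor tyrosine kinase, did so too, with differences of 3.54 (SE 0.62, adjusted p = 0.0169), 3.74 (SE 0.80, adjusted p = 0.0477) and 4.12 (SE 0.80, adjusted p = 0.0309) and ranges of 0.0954 to 0.230, 0.219 to 0.350 and 0.179 to 0.304. ITGB2, the integrin beta chain of white blood cells, was under the floor in both r2 pools and at 11.4 and 11.8 in r5, at least 11.3-fold higher (adjusted p = 0.0318, leave-one-out 0.166 to 0.239). AGT, which encodes angiotensinogen and was not among the 20 largest increases, was at 4.40 and 7.39 in r2 and 41.6 and 30.8 in r5 (2.65 (SE 0.50, adjusted p = 0.0248)). It lost its call without any 1 of the 4 arrays and was brighter still in r4, at 82.0 and 76.9. A dimmer AGT probe set was higher in r5 without passing the threshold (2.46, adjusted p = 0.360). ADCYAP1, the gene of the neuropeptide PACAP, was higher in r5 (24.7 and 36.5) than in r2 (2.48 and 3.01), by 3.46 (SE 0.47, adjusted p = 0.00398), and lost its call without r2 set 1 (0.0766) or r5 set 2 (0.0666).

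Genes of cell adhesion changed in both directions. CDH20, a type II cadherin, was at 10.6 and 9.90 in r2 and 301 and 249.6 in r5, a difference of 4.74 (SE 0.33, adjusted p = 2.91e-05) with a leave-one-out range of 0.00134 to 0.00232. On this probe set r3 was at 176 and 93.6 and r4 at 22.3 and 25.0. A dimmer CDH20 probe set was at 2.55 and 6.10 in r2, 1.07 and 7.56 in r3, 5.84 and 7.02 in r4 and 13.3 and 14.4 in r5, so that its r3 pools were not above those of r2 and r4, and r5 did not differ from r2 past the threshold (adjusted p = 0.496). CDH13, or T-cadherin, which is held to the membrane by a lipid anchor, was at 118 and 135 in r2 and 18.1 and 17.5 in r5 and fell by 2.83 (SE 0.26, adjusted p = 2.25e-04, leave-one-out 0.00722 to 0.00885). PCDH9, a protocadherin, was at 71.9 and 66.4 and 9.49 and 6.04 (-3.19 (SE 0.50, adjusted p = 0.00875)), which was lost without any 1 of the 4 arrays (0.0502 to 0.144). These were the 1 higher and 2 lower of 25 measured cadherins and protocadherins, whose median was -0.52. Dimmer CDH13 probe sets were lower in r5 without passing the threshold (-2.20, adjusted p = 0.0733 and -1.88, adjusted p = 0.290). CLDN1, a tight junction claudin, was at 436 and 485 in r2 and 103 and 73.9 in r5 (-2.40 (SE 0.31, adjusted p = 0.00317)), and its adjusted p was 0.0595 without r2 set 2 and 0.0574 without r5 set 2. The CLDN1 means in m (551) and r1 (621) were above that of r2 (461), and those in r3 (77.9) and r4 (127) were below it. Of the 14 measured Eph receptors and ephrins, which sort cells at segment boundaries, EPHA1 was the only one called. EPHA4, the receptor of r3 and r5, was at 8.66 and 7.74 in r2 and 41.0 and 36.0 in r5 but did not pass the threshold (2.23 (SE 0.58, adjusted p = 0.108)).

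In the extracellular matrix, 4 of 66 measured genes were higher in r5 and 3 lower, with a median of 0.02. This count moved to 13 and 6 without both r3 arrays, 14 and 7 with array weights, 9 and 3 with quantile normalisation and 2 and 6 without scaling. SPP1, the secreted phosphoprotein osteopontin, was at 13.6 and 17.2 in r2 and 412 and 459 in r5 (4.83 (SE 0.41, adjusted p = 1.78e-04), leave-one-out 0.00500 to 0.00743). Every other region was lower, with r4 at 12.6 and 24.5 and means of 5.90 to 17.4 elsewhere. COL6A3, a chain of the microfibrillar collagen VI, was at 5.15 and 5.37 in r2 and 123 and 113 in r5 (4.48 (SE 0.40, adjusted p = 2.25e-04), leave-one-out 0.00637 to 0.00875). FN1, fibronectin, was at 444 and 477 in r2 and 1261 and 1385 in r5 (1.52 (SE 0.24, adjusted p = 0.00769)). All 4 of its probe sets were called higher, although that of the brightest was lost without any 1 of the 4 arrays (0.0747 to 0.133). COL4A2, a basement membrane collagen chain outside the rule for named genes, was the fourth that was higher, by 1.34 (SE 0.23, adjusted p = 0.0141), with a leave-one-out range of 0.0563 to 0.222 and an adjusted p of 0.540 without scaling.

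The collagen genes that were lower encode a fibrillar chain and members that decorate fibrils. COL3A1 was at 141 and 123 in r2 and 25.8 and 19.4 in r5 and fell by 2.56 (SE 0.25, adjusted p = 3.46e-04, leave-one-out 0.00664 to 0.0169). COL9A3 was at 169.6 and 166 and 26.5 and 48.4 (-2.23 (SE 0.32, adjusted p = 0.00514)), with an adjusted p of 0.101 without r2 set 1, 0.0760 without r2 set 2 and 0.0671 without r5 set 1. COL14A1 was at 22.8 and 31.7 and 4.54 and 5.44 (-2.44 (SE 0.43, adjusted p = 0.0192), leave-one-out 0.0936 to 0.256). Of its other 3 probe sets, all dimmer and none called, 2 had both r5 pools below both r2 pools and 1 had overlapping pools. COL3A1 had 5 probe sets. A dimmer one was also called lower (-2.58, adjusted p = 0.0119). The others, dimmer still, were not called (adjusted p = 0.521, 0.875 and 0.901), and those at 0.875 and 0.901 had overlapping pools. A dimmer COL9A3 probe set was lower in r5 without passing the threshold (-1.51, adjusted p = 0.249). SULF1, which removes sulphate groups from heparan sulphate, was at 248 and 259.7 in r2 and 74.1 and 98.6 in r5 (-1.57 (SE 0.22, adjusted p = 0.00506)). Its call was lost without r2 set 1 (0.0899), r2 set 2 (0.0862) and r5 set 1 (0.0751), and of its other 5 probe sets 3 were called lower and none higher.

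Of the genes with the largest decreases, SHISA3, of a family named for a frog protein that holds Wnt and FGF receptors in the endoplasmic reticulum, was at 266 and 299 in r2 and 36.5 and 23.0 in r5. It fell by 3.28 (SE 0.29, adjusted p = 2.25e-04, leave-one-out 0.00232 to 0.00885). CYTL1, a secreted protein known from cartilage, was at 257 and 276 and 52.6 and 42.1 (-2.50 (SE 0.31, adjusted p = 0.00202), leave-one-out 0.0243 to 0.0428). The metabotropic glutamate receptor gene GRM3 was at 38.2 and 29.2 and 2.16 and 2.43 (-3.86 (SE 0.52, adjusted p = 0.00358)), and its call was lost without r2 set 1 (0.0980). GALNT6, a glycosyltransferase that starts O-linked sugar chains, was at 142 and 135 and 21.6 and 33.7 (-2.36 (SE 0.33, adjusted p = 0.00459)), and was lost without r2 set 1 (0.0970), r2 set 2 (0.0671) and r5 set 1 (0.0701). Its means of 426 in m and 358 in r1 were above that of r2. The decreases of PPARGC1A, a transcriptional coactivator of mitochondrial genes, and NBEAL2 were lost without any 1 of the 4 arrays, with differences of -2.54 (SE 0.45, adjusted p = 0.0189) and -3.34 (SE 0.60, adjusted p = 0.0204) and ranges of 0.112 to 0.234 and 0.0748 to 0.287. CRHBP, which binds corticotropin releasing hormone, SCIN, an actin severing protein, and TMEM196 differed by -3.60 (SE 0.63, adjusted p = 0.0175), -2.61 (SE 0.42, adjusted p = 0.0108) and -3.12 (SE 0.46, adjusted p = 0.00572) and kept their calls only without r5 set 2, with ranges of 0.0296 to 0.192, 0.0232 to 0.144 and 0.0296 to 0.0995. SH3BGR differed by -2.93 (SE 0.49, adjusted p = 0.0135) and kept its call only without r5 set 1 (0.0313 to 0.164).

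Patterning signals other than FGF gave few calls. WNT3A, a Wnt ligand of the dorsal midline, was at 21.8 and 27.9 in r2 and 119.6 and 97.3 in r5 (2.13 (SE 0.33, adjusted p = 0.00717)). A dimmer WNT3A probe set was higher in r5 without passing the threshold (1.21, adjusted p = 0.215). SFRP2, a secreted Wnt antagonist, was at 826 and 834 and 451 and 419.6 (-0.93 (SE 0.19, adjusted p = 0.0355)), and BMP5, a bone morphogenetic protein, at 144 and 171 and 44.3 and 23.7 (-2.28 (SE 0.39, adjusted p = 0.0158)). A dimmer BMP5 probe set was also called lower (-2.72, adjusted p = 0.0242), and another was lower without passing the threshold (-1.60, adjusted p = 0.297). WNT3A and SFRP2 lost their calls without any 1 of the 4 arrays (0.0604 to 0.133 and 0.165 to 0.318), and BMP5 kept its own only without r5 set 1 (0.0376 to 0.205). They were the calls among 46 measured genes of the Wnt pathway, with 1 higher, 1 lower and a median of -0.23, and among 31 of the BMP, activin and TGF-beta pathway, with 1 lower and a median of -0.05. PAX6, a paired-type homeobox gene of neural progenitors, was at 145 and 148 in r2 and 543 and 497 in r5, a difference of 1.83 (SE 0.21, adjusted p = 9.53e-04) with a leave-one-out range of 0.0171 to 0.0308. Its call was among those lost without scaling (0.240). PAX6 and SULF1 were the calls among 18 measured genes of ventral patterning, and WNT3A was the only one among 10 of dorsal patterning. The Notch pathway had none among 16, where 1.09% of all probe sets were called.

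Receptors and ligands of axon guidance were called both ways, with 2 higher and 2 lower of 36 measured and a median of -0.01. NRP2, a neuropilin that binds semaphorins and guides neural crest cells, was at 137 and 154 in r2 and 13.5 and 30.5 in r5 and fell by 2.84 (SE 0.34, adjusted p = 0.00158, leave-one-out 0.00144 to 0.0372). NEO1, the netrin and RGM receptor neogenin, was at 85.0 and 67.4 and 28.2 and 19.0 (-1.71 (SE 0.32, adjusted p = 0.0242), leave-one-out 0.0701 to 0.324). Dimmer probe sets of NRP2 and NEO1 were lower in r5 without passing the threshold (-1.02, adjusted p = 0.506 and -0.96, adjusted p = 0.456). Of the transmembrane semaphorins, SEMA5B was at 67.3 and 56.4 in r2 and 260.4 and 246 in r5 (2.04 (SE 0.28, adjusted p = 0.00398)) and SEMA6D at 51.1 and 61.8 and 244 and 179 (1.89 (SE 0.33, adjusted p = 0.0178)). Dimmer probe sets of both were higher in r5 without passing the threshold (adjusted p from 0.0521 to 0.473). SEMA5B kept its call only without r2 set 1 (0.0481 to 0.0754) and SEMA6D in none of these fits (0.0768 to 0.240). NRP2 and BMP5 were also the only calls among 29 measured genes of the neural crest list, whose defining transcription factors SOX10 and SNAI2 were at 233 and 273 and 205 and 223 in r2 and at 259 and 198 and 252 and 225 in r5.

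Genes of the midbrain and isthmus were called in neither direction, 0 of 14 measured, with a median of -0.38, whereas 1 was called higher and 3 lower without both r3 arrays, 1 and 4 with array weights and 0 and 2 without scaling. Over all probe sets 1.09% were called, so 0 of 14 does not set this list apart. EN1, an engrailed homeobox gene active on both sides of the isthmus, was at 89.5 and 103 in r2 and 30.0 and 9.93 in r5 (-2.48 (SE 0.55, adjusted p = 0.0579)), and its means were 1177 in m and 869.7 in r1. OTX2, the midbrain homeobox gene, was at 17.4 and 18.9 and 7.32 and 6.30 (-1.42 (SE 0.47, adjusted p = 0.241)) against a mean of 849 in m. GBX2, its counterpart behind the isthmus, was at 891 and 1049 and 574 and 1036 (-0.33 (SE 0.25, adjusted p = 0.688)), and PAX2 at 83.2 and 90.2 and 66.3 and 72.2 (-0.32 (SE 0.69, adjusted p = 0.911)). Taking both r5 pools below both r2 pools, 9 of these 14 genes were lower in r5, and both r5 pools were above in 2. Over all probe sets these shares were 30.3% and 21.3%, and a departure of the list from them was not tested.

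The adjacent segment r4 was also compared with r5. The mean log2 control ratio was higher in r4, at 4.05 and 3.56, than in r5, at 3.36 and 2.08, and its part in these differences was not tested. The r5 arrays enter both comparisons, so the values stand side by side and do not support each other. Higher in r5 than in r4 were HOXA3 by 3.85 (adjusted p = 0.0286), ASL1 by 3.38 (adjusted p = 0.00227), SPP1 by 4.63 (adjusted p = 5.81e-04), CDH20 by 3.54 (adjusted p = 6.22e-04), PLEK2 by 3.38 (adjusted p = 0.00188), DUSP5 by 3.62 (adjusted p = 0.00298), IRX1 by 3.30 (adjusted p = 6.77e-05) and VSIG1 by 5.31 (adjusted p = 0.0124). CDH13, COL3A1, CYTL1, COL9A3 and SULF1 were lower in r5 than in r4, by -2.60 (adjusted p = 9.25e-04), -2.14 (adjusted p = 0.00275), -2.02 (adjusted p = 0.0123), -2.68 (adjusted p = 0.00276) and -2.04 (adjusted p = 0.00188). ADCYAP1 was lower in r5 than in r4 as well, by -2.52 (adjusted p = 0.0427), although it was higher in r5 than in r2. A dimmer ADCYAP1 probe set was also called higher in r5 than in r2 (3.57, adjusted p = 0.0148). On it the difference of r5 from r4 did not pass the threshold (-1.78, adjusted p = 0.343). For FGF3, FGF19, TSHZ3, PAX6 and SPRY2 the difference of r5 from r4 did not pass the threshold, at 0.56 (adjusted p = 0.819), -0.39 (adjusted p = 0.870), -0.22 (adjusted p = 0.950), 0.16 (adjusted p = 0.906) and -0.56 (adjusted p = 0.541), and r4 itself differed from r2 by 3.55 (adjusted p = 0.00635), 3.25 (adjusted p = 0.00453), 3.62 (adjusted p = 0.00453), 1.67 (adjusted p = 0.00453) and -1.77 (adjusted p = 0.0102). HOXB3 differed between r5 and r4 by 2.55 (adjusted p = 0.186). Over all probe sets, 60 were higher and 41 lower in r5 than in r4. The differences of r5 from r4 are from the main fit alone and were not checked under the alternatives or without 1 array. Dimmer probe sets of HOXA3, CDH20, CDH13, COL3A1 and COL9A3 did not pass the threshold in r5 against r4 (adjusted p from 0.128 to 0.816). Of the dimmer SULF1 probe sets, some were called lower in r5 than in r4 and others were not called.

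**Figure D3:**
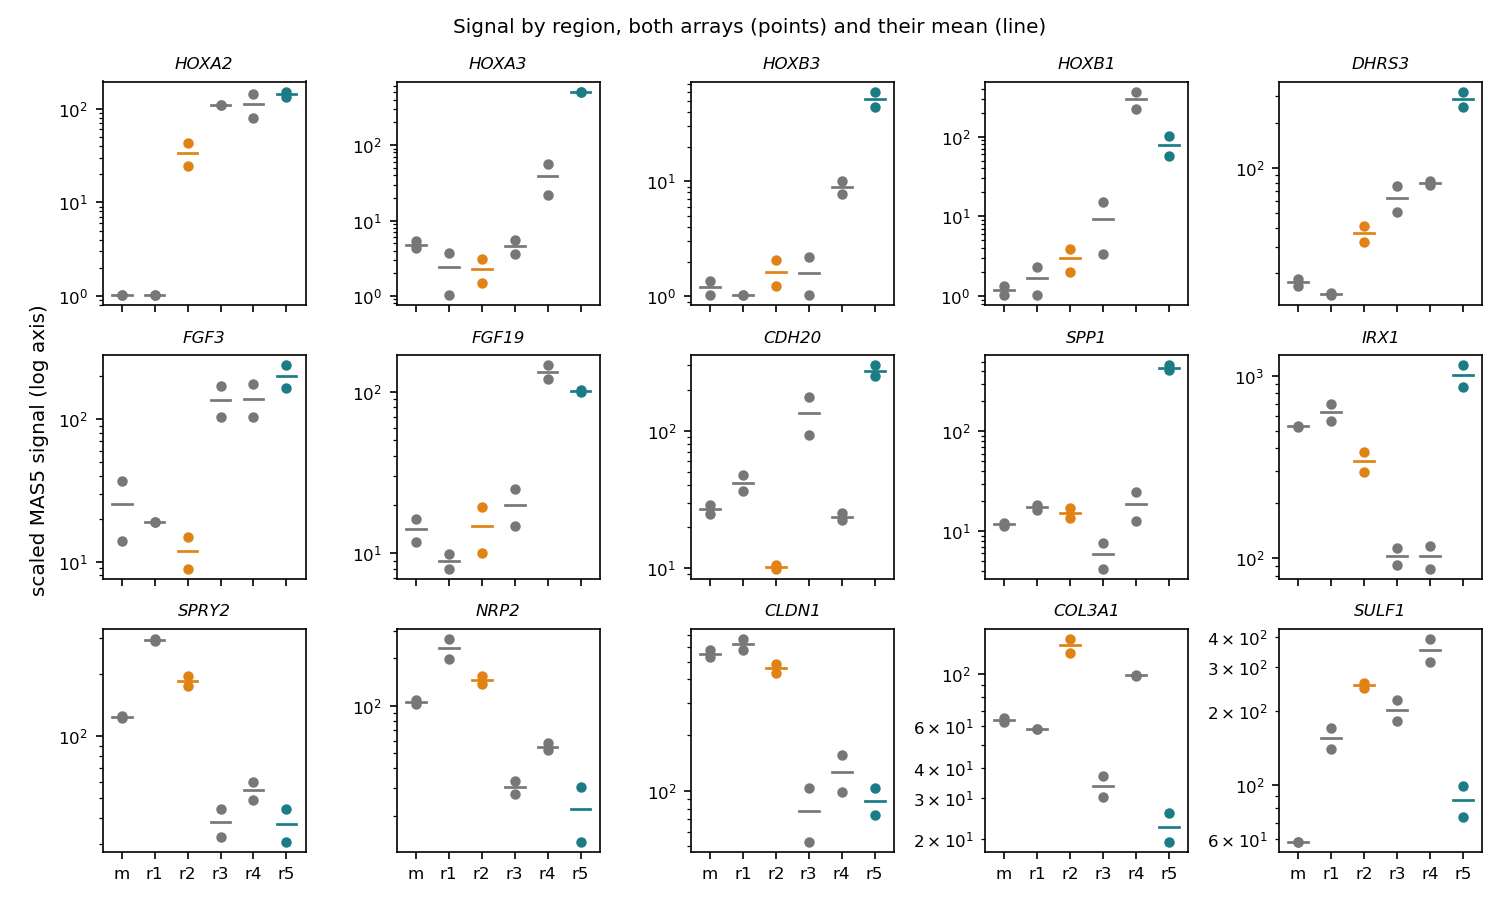
Scaled signal on a log axis, whose range differs between panels, in m and r1 to r5 for 15 genes, with both arrays as points and their mean as a line, r2 in orange and r5 in teal. SPP1 is high in r5 alone, FGF19 is high in r4 and r5, FGF3 from r3 to r5 on the probe set shown, CDH20 on its brighter probe set is lower in r2 and r4 than in r3 and r5, and SPRY2 and NRP2 are low from r3 to r5.

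Markers of other cells that a dissected segment may hold were measured beside these results. HBBR, an embryonic beta-like globin gene, was at 24.4 and 24.6 in r2 and under the floor in both r5 pools, at least 23.9-fold lower (adjusted p = 0.00358, and 0.0788 without r2 set 1 and 0.0627 without r2 set 2). The embryonic alpha-like globin gene HBZ was at 40.5 and 28.3 in r2 and 7.28 and 3.63 in r5 (-2.72 (SE 0.48, adjusted p = 0.0183)), and its call was lost without r2 set 1 (0.286), r2 set 2 (0.120) and r5 set 2 (0.158). These were 2 of 22 measured genes of blood and endothelium, all 22 together summing to 443 and 465 in r2 and 251 and 217 in r5, with a median of -0.91. In 13 of the 22 both r5 pools lay below both r2 pools, as they did in 30.3% of all probe sets, and a departure from that share was not tested. TAL1, SOX17, VWF, PTPRC and SPI1 did not pass the filter. The part of blood in the other results was not tested.

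Among markers of endoderm and heart, MYL3, a myosin light chain of heart and slow muscle, was the only one of 15 called. It was at 70.9 and 60.1 in r2 and 5.78 and 1.25 in r5 (-4.60 (SE 0.98, adjusted p = 0.0484)), lost its call without any 1 of the 4 arrays (0.0805 to 0.408), and the list summed to 768 and 727 in r2 and 623 and 525 in r5. The heart genes TNNT2 and MYH7 were dim, with overlapping pools, TNNT2 at 4.16 and 1.95 in r2 and 8.25 and 2.16 in r5 and MYH7 at 7.98 and 5.36 and 8.66 and 3.63. COL3A1 was the only one of 18 genes of mesoderm, somite and notochord (615 and 635 in r2, 510.0 and 384 in r5), CLDN1 the only one of 16 of surface ectoderm (1604 and 1737 in r2, 1220.0 and 1012 in r5), and WNT3A the only one of 13 of the otic placode and ear (1614 and 1848 in r2, 1417 and 1803 in r5). In the mesoderm list the somite gene MEOX2 was higher in r5 by 4.54 without passing the threshold. Both r5 pools lay above both r2 pools in 6 of the 18 genes of that list and below them in 5. Over all probe sets these shares were 21.3% and 30.3%. The neural crest list summed to 5728 and 5885 in r2 and 5938 and 5960 in r5. What these tissues contributed to COL3A1, CLDN1 or MYL3 was not tested.

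Lists of the general machinery of the cells gave no call in the fit over 12 arrays. None of 35 genes of neuronal differentiation, 22 of pan-neural progenitors, 33 channels, 39 of the cell cycle, 22 of stress and immediate early response or 22 of glycolysis passed the threshold, and their medians lay between -0.23 and 0.10. Over all probe sets 1.09% were called, so having no call does not set lists of this size apart. In all, 9 of the 28 lists had no call, the CYP26 enzymes, the midbrain and isthmus and the Notch pathway among them. These counts depended on the fit, since with array weights each of the 9 lists had 1 to 5 calls and without both r3 arrays 7 of them had calls, with 2 higher and 3 lower for neuronal differentiation and 3 higher for stress and immediate early response in both fits. At n = 2 a difference that missed the threshold is not shown to be absent.

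**Figure D4:**
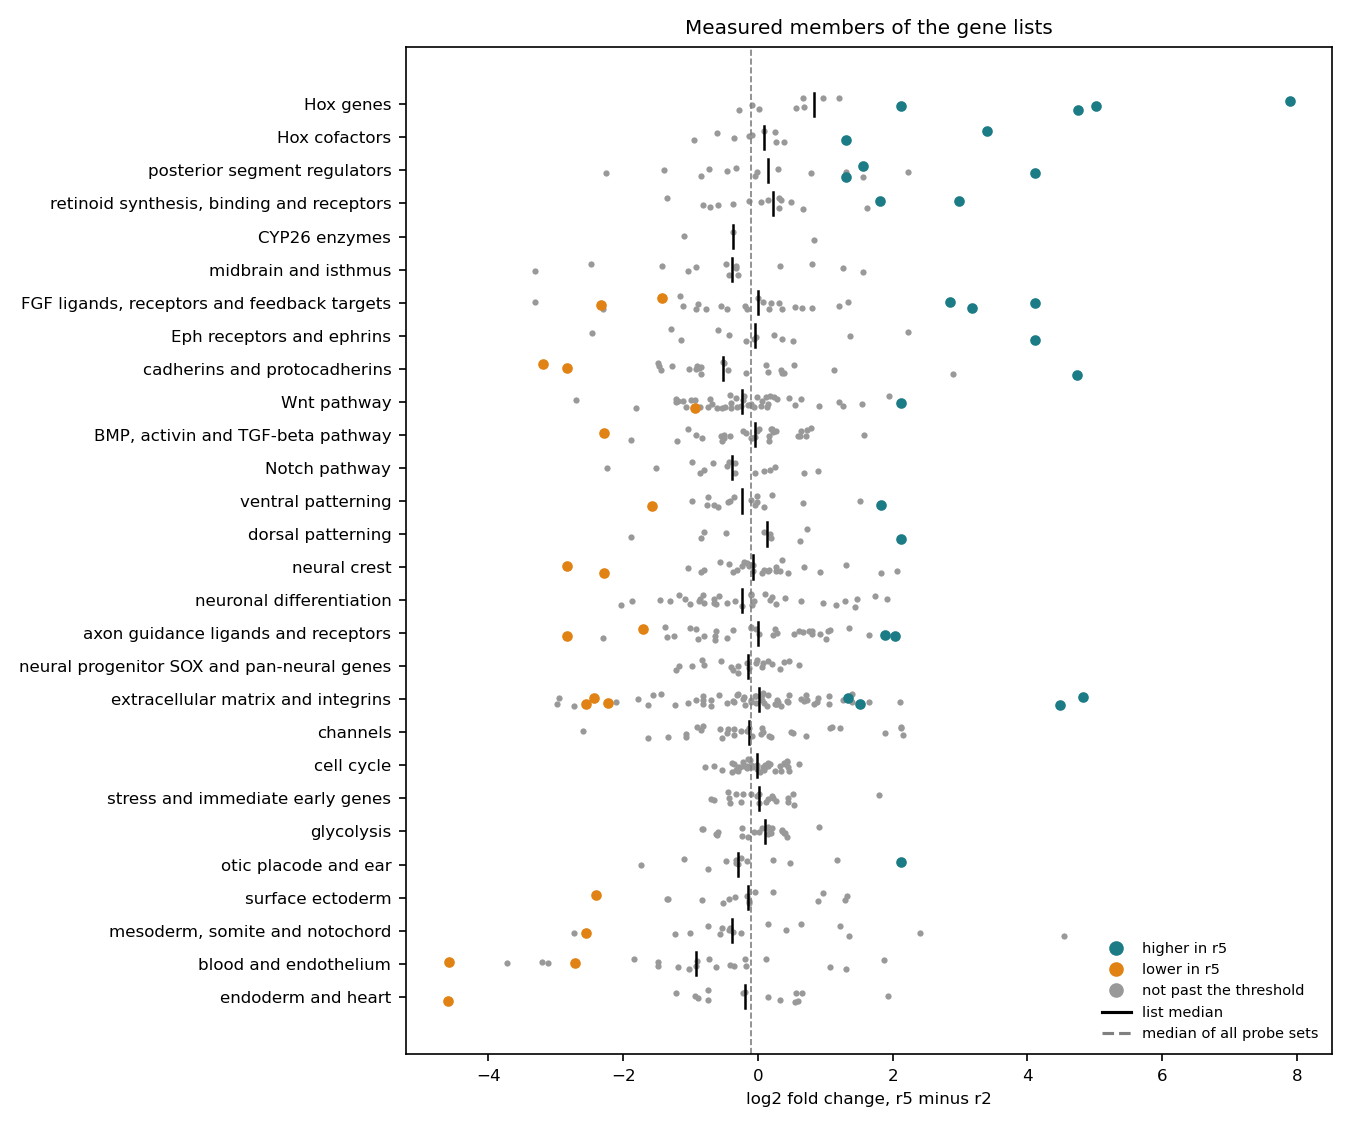
Difference of r5 from r2 on the log2 scale for the measured members of each of the 28 gene lists, 1 point per gene, with higher calls in teal, lower calls in orange, uncalled genes in grey, the list median as a black bar and the median of all probe sets, -0.10, as a dashed line. The Hox genes reach farthest to the right, at 7.90, and the blood and endothelium list has the lowest median, at -0.91.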

How the data were processed

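The authors deposited MAS5 signals for 38535 probe sets, linear intensity values in which mismatch probes adjust the perfect match probes, from 10 ng of amplified total RNA hybridised to Affymetrix Chicken GeneChips. Whether the deposited intensity values were scaled between arrays is not given in the sources used here, and the array medians ranged from 2.27 to 9.67. The submitters' processing notes name MAS5, and Present and Absent flags were not used here. AFFX controls were left out, each of the 12 arrays was scaled so that its remaining 38439 probe sets had a median of 5.90 (the average of all array medians), signals below 1.03 (the 20th percentile over all arrays) were raised to that value, which understates the change of dim genes, and log2 was taken. A probe set was kept where 1 or more regions had both arrays over their own median (21731, of which 16747 carry 1 gene symbol, for 10001 genes). Symbols came from the platform annotation.

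The contrast of r5 with r2 was fitted with limma 3.58.1 in R 4.3.3, with 6 region means over 12 arrays, lmFit, eBayes with trend, and 6 residual and 6.00 prior degrees of freedom. Adjustment was by Benjamini-Hochberg at a threshold of 0.05. These p-values set a difference against the spread between pools of a region, with n = 2. A gene is given by its kept probe set with the highest mean signal. Set numbers did not pair the arrays (r = -0.03 between the deviations of r2 and r5), and no arrays held identical values. The fit was tested on simulated data. Alternatives were other scalings, floors, filters, sets of arrays, moderation, array weights, a replicate block, a covariate for the 3′ to 5′ control ratio, other probe sets and leaving out each array.

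The genes named by rule are HOXA3, HOXB3 and DHRS3, the 20 highest and 20 lowest differences past the threshold, up to 6 called members of each list, and a group of patterning genes whatever their result. The members and the 28 lists were chosen with earlier results of these data known. A planned search of promoters for motifs was not analysed here. Plots were made with Python 3.11.15 and matplotlib 3.10.9.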

Additional observations from a re-analysis of the deposited data

How the results depend on the processing

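The number of calls depended on the processing, and no gene called by the rule reversed its direction on the same probe set under any of the 19 alternatives. Against 126 probe sets higher and 111 lower, quantile normalisation gave 201 and 144, a floor at the 40th percentile 190 and 159, no filter 95 and 72, the 4 arrays of r2 and r5 alone 339 and 258, the fit without both r3 arrays 458 and 532, array weights 567 and 687, the plain contrast without moderation 54 and 34, and a covariate for the 3′ to 5′ ratio 47 and 35. Without scaling the counts were 24 and 297, so that 7.48% of the calls were higher in place of 53.2%, and the median of all probe sets moved from -0.10 to -1.02. Without each of the 4 arrays in turn, 29 to 45 were higher and 16 to 37 lower. All 237 probe sets called remained called without both r3 arrays and with array weights. With the set number as a replicate block the counts were 114 and 100, and 58 of 59 named calls were kept, BFSP1 excepted. No pair of the 15 pairs of regions had same-numbered arrays whose deviations correlated above 0.1, the range being -0.04 to 0.07.

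Of the 59 named calls, quantile normalisation kept 57, no scaling 43, no filter 44, no intensity trend 48, the plain contrast 20, the covariate 30 and the fits without 1 array 21 to 27, and 17 were kept in all 4 of the latter. Of the named genes not called, 5 gained a call with the 4 arrays of r2 and r5 alone, 6 without both r3 arrays, 7 with array weights and 3 without scaling. Of the 28 lists, 22 had more calls without both r3 arrays and 25 with array weights, the Wnt pathway reaching 7 lower and the blood and endothelium list 6 lower with array weights, and 16 had fewer with the covariate. Directions that turned were all of genes not called or of dimmer probe sets. Without scaling, FST was at -0.14 in place of 0.79, CYP26C1 at -0.10, ALDH1A2 at -0.45, MEIS1 at -0.66 and MEIS2 at -0.83. With the covariate, CYP26A1 was at 0.11, ALDH1A2 at -0.38 and PAX2 at 0.65. Without 1 of the 4 arrays, GBX2 ranged from -0.75 without r5 set 2 to 0.10 without r5 set 1. Other probe sets gave -0.83 for HOXB1 and 0.38 for COL14A1. The cause of these changes was not tested.

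With n = 2 pools and 1 floor for all arrays, genes dim in both segments could not be compared, and 3.32% and 2.85% of the probe sets kept were at the floor on the r5 arrays against 2.15% and 2.20% on the r2 arrays.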

Other observations

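The genes in these paragraphs were chosen after their values were seen, and they were picked for what they are known for, so their number says nothing about r5. Besides ASL1 and BFSP1, other genes known from the lens did not move together. CRYAB, a small heat shock protein abundant in the lens, was at 257 and 197 in r2 and 1311 and 1435 in r5 (2.61 (SE 0.53, adjusted p = 0.0392)), and its call was lost without any 1 of the 4 arrays (0.201 to 0.330). In r4 its mean was 92.3. BFSP2, the filament partner of BFSP1, was at 259 and 342 in r2 and 761 and 559 in r5 without passing the threshold (1.13 (SE 0.25, adjusted p = 0.0523)). CRYBA4, a beta crystallin gene, was at 102 and 83.6 and 34.6 and 29.2 (-1.54 (SE 0.37, adjusted p = 0.0823)), and both of its r5 pools lay below both r2 pools. CRYBB1 differed by 0.47 (SE 0.71, adjusted p = 0.866).

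Genes known from the liver were likewise mixed. FGB, a fibrinogen chain, was at 3.03 and 3.16 in r2 and 30.3 and 25.2 in r5 (3.16 (SE 0.61, adjusted p = 0.0309)), and its call was lost without any 1 of the 4 arrays (0.170 to 0.262). GAMT, the last enzyme of creatine synthesis, was at 43.0 and 51.3 in r2 and 360.1 and 425 in r5 (3.06 (SE 0.28, adjusted p = 2.25e-04)), and it passed the threshold without any 1 of the 4 arrays (0.00637 to 0.0106). ALB and APOA1, the genes of serum albumin and the main protein of high-density lipoprotein, differed by 0.65 (SE 0.47, adjusted p = 0.669) and -1.21 (SE 0.71, adjusted p = 0.575).

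Signalling genes outside the lists were also called. DIO2, the deiodinase that converts thyroxine to the active thyroid hormone, was at 29.0 and 31.1 in r2 and 196 and 190.3 in r5 (2.69 (SE 0.33, adjusted p = 0.00170)), and it passed without any 1 of the 4 arrays (0.0306 to 0.0427). PENK, the precursor of the enkephalin opioid peptides, was at 23.8 and 19.4 and 134 and 127 (2.61 (SE 0.38, adjusted p = 0.00545)), was lost without any 1 of the 4 arrays (0.0666 to 0.0915), and had a mean of 147 in r4. NRG1, the ErbB ligand neuregulin 1, was higher in r5 (29.0 and 30.1) than in r2 (11.4 and 10.4), by 1.44 (SE 0.30, adjusted p = 0.0415), also lost without any 1 array (0.188 to 0.304), and lower in r5 than in r4, by -2.50 (adjusted p = 0.00276). Calls that held without any 1 of the 4 arrays included CD99, a cell surface glycoprotein, at 92.3 and 116 and 489.9 and 491 (2.25 (SE 0.22, adjusted p = 3.46e-04), leave-one-out 0.00657 to 0.0151), CHODL, the lectin chondrolectin, at 137 and 149.6 and 562 and 573 (1.99 (SE 0.19, adjusted p = 3.14e-04), leave-one-out 0.00885 to 0.0139), and CASKIN2, a scaffold protein, at 202 and 186 and 909 and 1082 (2.35 (SE 0.23, adjusted p = 3.70e-04), leave-one-out 0.00895 to 0.0138). MEOX2, a homeobox gene of the somites that stands on the mesoderm list, was at 1.29 and 2.03 in r2 and 34.7 and 40.9 in r5. It did not pass the threshold (4.54 (SE 1.08, adjusted p = 0.0787)). Without scaling, the calls of CRYAB, FGB, GAMT, DIO2, PENK, NRG1, CD99, CHODL and CASKIN2 were lost, with adjusted p from 0.0565 for GAMT to 0.517 for NRG1.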
